A study of Homo sapiens with 12 samples.

Results

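The genes described here encode the nuclear pore complex and the soluble receptors that move cargo through it. They were chosen by symbol, not by measured values: every probe set annotated with exactly 1 symbol starting with NUP and a digit, KPNA, KPNB, IPO and a digit, XPO or TNPO, together with NDC1, POM121, TPR, AAAS, SEH1L, RANBP2, RAN, RANGAP1, RAE1, CSE1L and NXF1. This gave 170 of 54675 probe sets and 61 of 19775 symbols. No probe set carried NXF1 as its single symbol. Of the 61 symbols, 56 are protein-coding and 5 are pseudogenes or noncoding transcripts. A value over 4 (log2) on at least 3 of the 12 arrays was met by 138 probe sets and 55 of the symbols, and the counts below are over those 55 genes. A gene with several such probe sets was read from the one with the highest average signal.

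The cells were HK-2, an immortalized line derived from epithelium of the human kidney's proximal tubule. One set of cultures received a high dose of a compound the labels call Ota, for 24 h or 72 h, and the other received the control vehicle for the same times. The sources used here give neither the dose nor a fuller name for the compound. Each of the 4 groups had 3 arrays, labelled as biological replicates, and all come from a single cell line. The series text places the experiment in a search for expression signatures of kidney toxicity.

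The nuclear pore is a ring of repeated subcomplexes set into the nuclear envelope. A membrane ring anchors it, an inner ring and the Y-shaped outer ring complexes form the scaffold, and nucleoporins rich in phenylalanine-glycine repeats fill the channel. Importins carry cargo inward and exportins carry it outward, and the small GTPase Ran sets the direction, because RANGAP1 keeps Ran in its GDP form in the cytoplasm. Epithelial cells of the proximal tubule rely on the same machinery as other cells, and in dividing cells the pore is taken apart and rebuilt at each mitosis.

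The groups also differed in array-wide measures, which stand beside every result below. Poly-A spike-in controls, RNAs added to each sample in fixed amounts, read 1.85 (log2) higher on Ota than on control arrays at 24 h and 0.89 higher at 72 h. The median over all tested genes was lower by 0.56 and 0.28 (each exact permutation p = 0.1, two-sided, the smallest that 3 against 3 arrays allow). Results are therefore given for the values as deposited and, where the direction depends on it, after centring each array on its median, after quantile normalization, and after scaling to the spike-ins. These scalings moved the all-gene median difference at 24 h by 0.56, 0.21 and -1.85, and at 72 h by 0.28, 0.08 and -0.89. The difference between the 3′ and 5′ probe sets of ACTB, a sign of RNA or labelling quality, was 0.58 higher on Ota arrays at 72 h (exact p = 0.1) and 0.046 higher at 24 h (exact p = 0.9). For GAPDH that difference was 0.033 higher on Ota arrays at 72 h (exact p = 0.7) and 0.031 higher at 24 h (exact p = 0.3). Probe sets for 18S ribosomal RNA read 1.58 higher on Ota arrays at 24 h and 1.34 higher at 72 h (each exact p = 0.1). The part these measures play in the results was not tested. Replicates of a group correlated at 0.954 to 0.994 over the tested genes.

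Of 10 proximal tubule markers, 2 passed the filter (PAX8 and SLC4A4), while LRP2, CUBN, SLC34A1, SLC22A6 and AQP1 lay under it in all groups. All 6 epithelial markers passed. Of markers of other cells, 0 of 4 endothelial, 0 of 3 leukocyte, 1 of 3 collecting duct and 1 of 2 podocyte markers passed. Of 6 fibroblast markers 3 passed (COL1A1, DCN and LUM), and the list's mean, with the 3 under the filter, was 6.10 in control and 6.00 in Ota cells at 24 h, and 5.34 and 5.79 at 72 h. Single markers moved further. From control to Ota, COL1A1 went from 8.11 to 6.18 at 24 h and from 7.08 to 7.63 at 72 h, and LUM from 9.04 to 9.73 and from 7.26 to 8.81. PAX8 went from 10.08 to 7.54 at 24 h and from 9.58 to 7.99 at 72 h, SLC4A4 from 11.87 to 9.65 and from 12.34 to 8.83, and CDH1, an epithelial marker, from 7.74 to 7.45 and from 8.80 to 5.62. The other epithelial markers did not all move that way. KRT8 went from 11.43 to 11.56 at 24 h and from 10.68 to 11.28 at 72 h. EPCAM went from 12.69 to 13.03 and from 13.30 to 13.19, and CDH2 from 8.92 to 9.14 and from 9.05 to 8.68. KRT18 went from 12.32 to 10.87 and from 12.65 to 12.17, and KRT19 from 11.99 to 9.57 and from 11.54 to 10.24. The part of these markers in the results was not tested.

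Promoter sequence was available from RefSeq (GRCh38.p14) for 49 of the 55 measured genes. The letters CCAAT, searched on both strands from 250 bases before to 50 bases after the start site, were found in 44.9% of the members' windows and in 35.7% of all 27305 windows of that length. The letters CCGGAAGT were found in 16.3% against 4.44%, GCGCATGC in 6.12% against 3.27%, TTTCGCGC in 2.04% against 0.546%, and TTTGAA in 20.4% against 15.4%. The 27305 windows were not limited to genes past the filter, as the members were, so the 2 sets of shares are not matched. A match is a description of letters, not a site. The 120 bases before the start site are shown, 5′ to 3′ on the gene's own strand, for 5 genes described below. Matches are in capitals, and each of these 5 holds a match. NUP85, NUP155, NUP205, RANGAP1, XPO5, RAE1 and RAN, also described below, hold no match in theirs. KPNA2 (chr17:68035615-68035734, plus strand) holds CCAAT at 2 places and TTTGAA on the opposite strand. NUP98 (chr11:3797547-3797666, minus strand) and XPO1 (chr2:61538357-61538476, minus strand) each hold CCAAT at 2 places. NUP107 (chr12:68686858-68686977, plus strand) holds GCGCATGC on both strands, overlapping. POM121 (chr7:72879237-72879356, plus strand) holds CCGGAAGT on the opposite strand.

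KPNA2: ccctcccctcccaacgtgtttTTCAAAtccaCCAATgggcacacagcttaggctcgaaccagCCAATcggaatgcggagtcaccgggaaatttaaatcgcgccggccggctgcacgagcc
NUP98: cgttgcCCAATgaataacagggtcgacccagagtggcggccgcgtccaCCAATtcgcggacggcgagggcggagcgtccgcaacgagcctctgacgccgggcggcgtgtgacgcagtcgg
XPO1: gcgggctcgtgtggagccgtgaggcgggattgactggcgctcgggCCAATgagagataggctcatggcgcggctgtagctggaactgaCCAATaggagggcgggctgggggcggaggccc
NUP107: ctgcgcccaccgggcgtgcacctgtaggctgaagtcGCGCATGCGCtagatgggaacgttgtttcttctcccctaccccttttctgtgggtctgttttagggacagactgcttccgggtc
POM121: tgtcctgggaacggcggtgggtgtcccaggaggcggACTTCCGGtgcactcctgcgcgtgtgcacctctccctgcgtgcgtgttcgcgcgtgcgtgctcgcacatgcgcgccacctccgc

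At 24 h of Ota, 9 of the 55 genes rose and 23 fell, and at 72 h 29 rose and 9 fell. The membrane nucleoporin POM121 rose most at both times, the scaffold nucleoporin NUP85 fell most at 24 h, and NUP93, NUP155, XPO1, KPNA2 and NUP205 were among the genes that rose at 72 h. The counts include 7 genes called in opposite directions at the 2 times: KPNA3, NUP107, NUP155, NUP62, NUP98, RAN and RANGAP1 fell at 24 h and rose at 72 h, as deposited. With centring 4 of these 7 kept both calls, after quantile normalization 6, and with the spike-in scaling 0. Calls were made with limma at an adjusted p under 0.05 over all 10729 genes tested. Of all genes tested, 61.3% were called at 24 h (20.8% rose and 40.5% fell) and 60.1% at 72 h (24.8% rose and 35.2% fell).

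The members' split at 24 h was close to that background, with 58.2% called and a median log2 fold change of -0.23 beside -0.24 for all genes. At 72 h 52.7% of members rose, and their median was 0.49 beside -0.11 for all genes. The direction of the 24 h split depended on the scaling: 26 rose and 13 fell with centring (43.4% and 26.7% of all genes), 12 and 20 after quantile normalization (28.4% and 34.6%), and 1 and 53 with the spike-in scaling (1.42% and 93.5%). At 72 h 36 rose and 7 fell with centring (35.5% and 27.8% of all genes) and 31 and 8 after quantile normalization (26.8% and 33.5%), but 4 and 19 with the spike-in scaling (5.17% and 62.6%). The 2 comparisons use separate control arrays. In bulk RNA, fewer cells of a kind and less of a transcript per cell cannot be told apart.

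Counted without a model, the 3 Ota values lay wholly above the 3 control values in 9 members and wholly below in 25 at 24 h, and above in 35 and below in 10 at 72 h. The groups thus failed to overlap in 61.8% of members at 24 h, beside 65.7% of all genes, and in 81.8% at 72 h, beside 73.7%. Both calls were falls in 6 members (10.9%, beside 21.6% of all genes), namely IPO5P1, IPO8, NUP62CL, NUP88, XPO5 and XPOT. Both were rises in 9 (16.4%, beside 10.95%), namely IPO5, NDC1, NUP153, NUP58, NUP93, POM121, RAE1, TNPO3 and XPO1. A fall followed by a rise was seen in the 7 genes named above (12.7%, beside 3.64%). A rise at 24 h with no call at 72 h was seen in 0 members, beside 7.46% of all genes. A rise followed by a fall was seen in 0, beside 2.43%, as deposited.

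These pairs of calls moved with the scaling. Rises at both times numbered 24 with centring (43.6%, beside 23.5% of all genes), 11 after quantile normalization (20%, beside 14.1%) and 1, POM121, with the spike-in scaling (1.82%, beside 0.885%). A fall followed by a rise was called in 5 members with centring (9.09%, beside 3.35%), in 7 after quantile normalization (12.7%, beside 3.34%) and in 3 with the spike-in scaling (5.45%, beside 2.79%). The 5 with centring were KPNA3, NUP155, NUP35, NUP98 and RANGAP1, and the 3 with the spike-in scaling were NUP93, XPO1 and XPO6. Falls at both times numbered 3, 5 and 19 under the 3 scalings (13.7%, 18.7% and 61.4% of all genes). A rise followed by a fall was called in 2 members with centring, IPO4 and KPNA5 (3.64%, beside 5.19%). After quantile normalization it was called in 1, IPO4 (1.82%, beside 3.35%), and with the spike-in scaling in 0 (beside 0.158%). With centring 10 of the 23 falls at 24 h ended, those of CSE1L, IPO5P1, IPO9, KPNB1, NUP107, NUP62, RAN, TNPO1, XPO4 and XPOT, and 2 of the 9 falls at 72 h, those of AAAS and IPO8. Quantile normalization ended the 24 h falls of IPO5P1, NUP62 and XPO4, the 72 h fall of AAAS and the 72 h rise of IPO7. With the spike-in scaling POM121, NUP93, XPO1 and XPO6 were the 4 members that rose at 72 h.

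**Figure D1:**
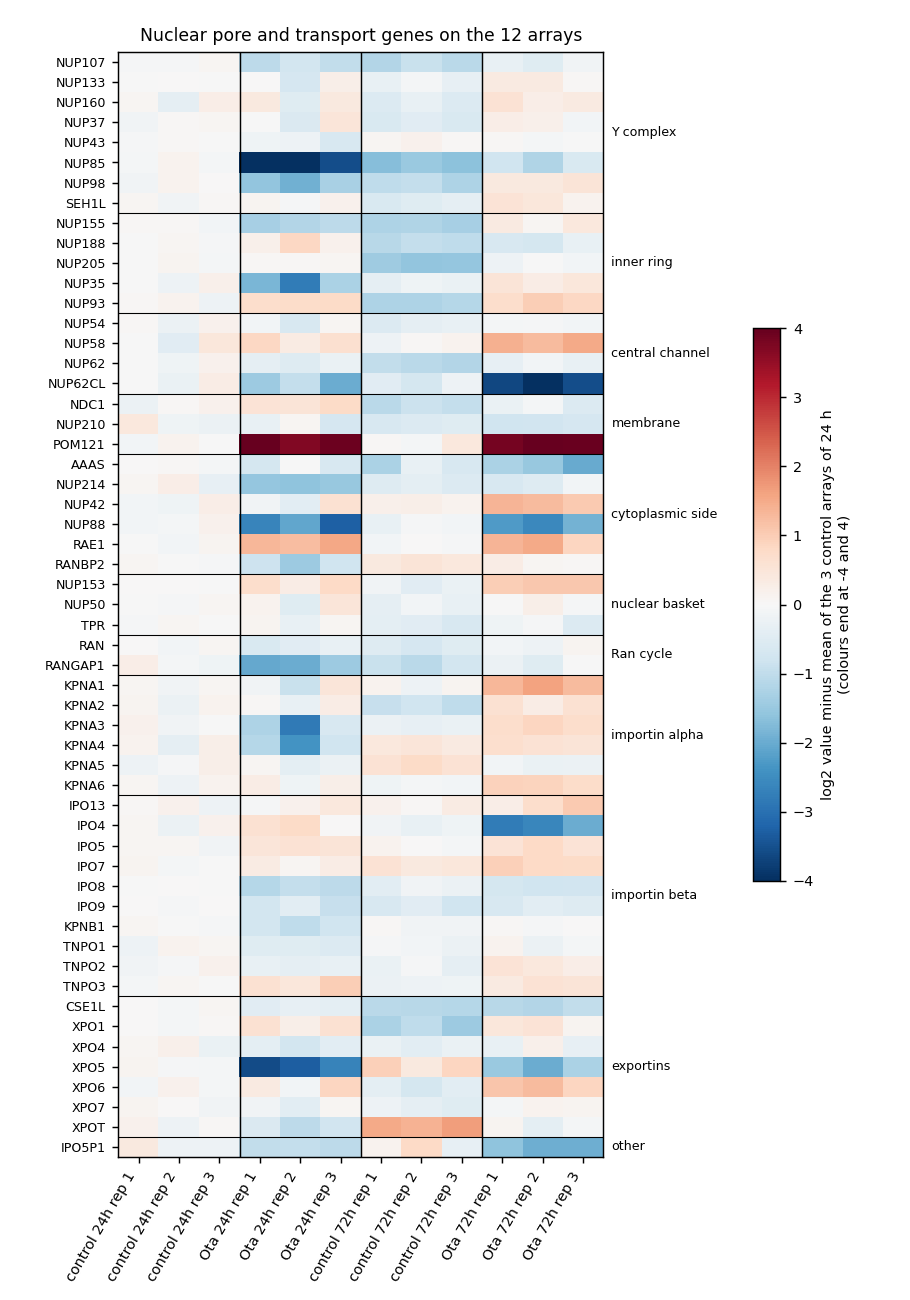
Values of the 55 measured genes on the 12 arrays, as log2 difference from the mean of the 3 control arrays of 24 h (red higher, blue lower, colours end at -4 and 4). Rows are grouped by role and columns are arrays. NUP85 and XPO5 are the deepest blue on the Ota arrays of 24 h, and POM121 is red on all 6 Ota arrays.

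The inner ring, which holds the scaffold together and anchors the channel, had the highest median log2 fold change of the role groups at 72 h among the deposited values (1.40). At 24 h 1 of 5 rose and 2 fell (3 and 2 with centring, 2 and 2 after quantile normalization, 0 and 5 with the spike-in scaling). At 72 h 4 of 5 rose and 0 fell (5 and 0 with centring, 5 and 0 after quantile normalization, 1 and 0 with the spike-in scaling). NUP93, the subunit that anchors the channel nucleoporins, measured 9.66, 9.75 and 9.42 on the control and 10.31, 10.34 and 10.38 on the Ota arrays of 24 h. The 72 h arrays gave 8.38, 8.37 and 8.47 on control and 10.31, 10.58 and 10.45 on Ota arrays. The Ota arrays were the higher ones at both times, with no overlap. NUP93 rose by 0.73 ± 0.13 (SE) at 24 h (limma adjusted p = 5.4e-04; -1.12 with the spike-in scaling) and by 2.04 ± 0.13 at 72 h (limma adjusted p = 2.4e-07; 1.15 with the spike-in scaling).

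NUP155, which links the ring to the membrane, behaved differently at the earlier time. It measured 8.84, 8.83 and 8.66 on control and 7.46, 7.60 and 7.72 on Ota arrays at 24 h, and 7.53, 7.57 and 7.45 (control) and 9.13, 8.87 and 9.19 (Ota) at 72 h. The Ota arrays were all lower at 24 h and all higher at 72 h. The log2 fold changes were -1.19 ± 0.14 (SE, limma adjusted p = 1.5e-05) and 1.55 ± 0.14 (limma adjusted p = 2.1e-06). NUP35, a membrane-binding linker, measured 10.04, 9.84 and 10.24 on control and 8.22, 7.25 and 8.78 on Ota arrays at 24 h, a log2 fold change of -1.96 ± 0.30 (SE, limma adjusted p = 1.3e-04) and no overlap. By 72 h these were 9.68, 9.87 and 9.78 (control) and 10.55, 10.33 and 10.48 (Ota), a difference of 0.68 that did not pass (limma adjusted p = 0.0672).

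The large scaffold subunit NUP205 measured 9.56, 9.69 and 9.50 on control and 9.62, 9.62 and 9.67 on Ota arrays at 24 h, which overlapped. At 72 h it measured 8.18, 8.002 and 8.05 (control) and 9.37, 9.57 and 9.48 (Ota), all Ota arrays above all controls, and rose by 1.40 ± 0.12 (SE, limma adjusted p = 2.0e-06; 0.51 with the spike-in scaling). Its relative NUP188 rose by 0.48 ± 0.18 at 72 h (limma adjusted p = 0.0415; -0.41 with the spike-in scaling), and this call ended when any 1 of Ota replicates 1 and 3 of 72 h, control replicates 1, 2 and 3 of 24 h and control replicates 1, 2 and 3 of 72 h was left out (limma adjusted p up to 0.148).

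The Y complexes build the outer rings. At 24 h 0 of 8 rose and 3 fell (4 and 2 with centring, 0 and 3 after quantile normalization, 0 and 8 with the spike-in scaling), and at 72 h 5 of 8 rose and 0 fell (6 and 0 with centring, 6 and 0 after quantile normalization, 0 and 1 with the spike-in scaling). NUP85, in the short arm of the Y, measured 9.87, 10.09 and 9.85 on control arrays and 4.29, 3.79 and 6.39 on Ota arrays at 24 h. All 3 Ota values were far below the controls, and Ota replicate 3 was higher than the other two. Its log2 fold change of -5.12 ± 0.49 (SE, limma adjusted p = 3.9e-06) was the lowest of any measured member at 24 h in the deposited values, but 2 of the 3 Ota values lay within the range of member probe sets under the filter (2.00 to 4.43), so its exact size is uncertain. At 72 h the values were 8.22, 8.44 and 8.29 on control and 9.15, 8.74 and 9.33 on Ota arrays, the latter all higher, but the difference of 0.76 ± 0.49 did not pass (limma adjusted p = 0.208).

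NUP98, whose precursor also yields the Y-complex subunit NUP96 and which carries the channel's repeats, measured 8.33, 8.62 and 8.49 on control and 6.90, 6.55 and 7.19 on Ota arrays at 24 h. The 72 h values were 7.47, 7.53 and 7.25 (control) and 8.88, 8.87 and 9.01 (Ota). Ota values were all lower at 24 h and all higher at 72 h, with log2 fold changes of -1.60 ± 0.17 and 1.501 ± 0.17 (SE; limma adjusted p = 8.5e-06 and 1.5e-05). All 3 NUP98 probe sets fell at 24 h, with log2 fold changes from -4.86 to -0.89, and at 72 h 2 rose while the third was at -0.65 (limma adjusted p = 0.1).

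NUP107, a core member of the Y that is described because of its fall and later rise and was singled out after its values were seen, measured 10.24, 10.25 and 10.37 on control and 9.24, 9.56 and 9.30 on Ota arrays at 24 h. By 72 h the values were 9.13, 9.41 and 9.20 (control) and 9.99, 9.81 and 10.13 (Ota). The groups did not overlap at either time, and the log2 fold changes were -0.92 ± 0.15 and 0.73 ± 0.15 (SE; limma adjusted p = 1.9e-04 and 0.00101; -0.36 at 24 h with centring, not past the threshold; -0.16 at 72 h with the spike-in scaling). NUP160, a large scaffold subunit, measured 8.08, 8.34 and 8.08 on control and 9.21, 8.89 and 8.99 on Ota arrays at 72 h and rose by 0.86 ± 0.24 (SE, limma adjusted p = 0.00924; -0.03 with the spike-in scaling). At 24 h its groups overlapped (8.71, 8.29 and 8.91 (control) against 9.04, 8.14 and 9.03 (Ota)) and it did not pass. The second NUP160 set fell at 24 h (-0.52). NUP37 and SEH1L rose at 72 h by 0.68 and 0.86 (-0.21 and -0.03 with the spike-in scaling), and the NUP37 call ended when any 1 of Ota replicates 1 and 2 of 72 h and control replicates 1 and 3 of 72 h was left out (limma adjusted p up to 0.072). A second NUP37 probe set rose by 2.69 at 24 h and by 2.86 at 72 h. The second SEH1L set fell at 24 h (-1.04). NUP43 and the chosen set of NUP133 passed at neither time, though that NUP133 set rose at both times with centring, and at 72 h after quantile normalization. The second NUP133 set rose by 1.33 at 72 h.

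The membrane ring anchors the pore, and POM121 and NDC1 are transmembrane subunits. At 24 h 2 of 3 rose and 0 fell (2 and 0 with centring, 2 and 0 after quantile normalization, 1 and 2 with the spike-in scaling), and at 72 h 2 of 3 rose and 0 fell (2 and 0 with centring, 2 and 0 after quantile normalization, 1 and 1 with the spike-in scaling). POM121 measured 4.53, 4.78 and 4.62 on control and 8.67, 8.34 and 8.58 on Ota arrays at 24 h, and 4.70, 4.57 and 5.07 (control) and 8.47, 8.77 and 8.59 (Ota) at 72 h. Every Ota array was above every control by over 3 (log2). The rises were 3.88 ± 0.17 and 3.83 ± 0.17 (SE; limma adjusted p = 1.3e-08 and 1.6e-08), and it was the 1 member that still rose at 24 h with the spike-in scaling (2.03). The control values lie just above the filter's value of 4, and the gene has a near-identical copy, POM121C, so the split of signal between them is uncertain. The POM121C symbol, read from a probe set of the kind marked as shared or cross-hybridizing, had log2 fold changes of -0.81 ± 0.18 at 24 h and 0.35 ± 0.18 at 72 h (SE; limma adjusted p = 0.00177 and 0.109).

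NDC1 measured 10.10, 10.37 and 10.49 on control and 10.86, 10.82 and 11.07 on Ota arrays at 24 h, and 9.25, 9.45 and 9.37 (control) and 10.05, 10.23 and 9.76 (Ota) at 72 h. Its Ota arrays were above the controls at both times, with rises of 0.60 ± 0.16 and 0.66 ± 0.16 (SE; limma adjusted p = 0.0067 and 0.00393), which became -1.25 and -0.23 with the spike-in scaling. The chosen set of NUP210 passed at neither time, and 1 of its 5 sets fell at 72 h (-0.89).

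In the central channel, NUP62, NUP54 and NUP58 form the repeat-bearing trimer and NUP62CL resembles the C-terminal part of NUP62. At 24 h 1 of 4 rose and 2 fell (1 and 1 with centring, 1 and 1 after quantile normalization, 0 and 4 with the spike-in scaling), and at 72 h 2 of 4 rose and 1 fell (3 and 1 with centring, 2 and 1 after quantile normalization, 0 and 1 with the spike-in scaling). NUP62 measured 9.39, 9.24 and 9.58 on control and 9.04, 8.88 and 9.14 on Ota arrays at 24 h, and 8.41, 8.32 and 8.22 (control) and 9.06, 9.30 and 9.12 (Ota) at 72 h. Its Ota values lay below the controls at 24 h and above them at 72 h. The log2 fold changes were -0.38 ± 0.14 and 0.84 ± 0.14 (SE; limma adjusted p = 0.0338 and 2.9e-04), the first turned to 0.18 with centring and the second to -0.05 with the spike-in scaling. The 24 h call ended when any 1 of Ota replicates 1 and 2 of 24 h and control replicates 1 and 3 of 24 h was left out (limma adjusted p up to 0.126).

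NUP58 measured 7.82, 7.38 and 8.27 on control and 8.65, 8.15 and 8.46 on Ota arrays at 24 h, with overlap, and rose by 0.60 ± 0.22 (SE, limma adjusted p = 0.0325; -1.25 with the spike-in scaling). That call ended when any 1 of Ota replicates 1 and 3 of 24 h and control replicates 1 and 2 of 24 h was left out (limma adjusted p up to 0.142). At 72 h it measured 7.61, 7.88 and 7.95 (control) and 9.23, 9.08 and 9.35 (Ota) without overlap, and rose by 1.41 ± 0.22 (limma adjusted p = 1.6e-04). NUP62CL moved the other way: it measured 8.39, 8.14 and 8.69 on control and 6.95, 7.46 and 6.43 on Ota arrays at 24 h, and 7.96, 7.71 and 8.19 (control) and 4.76, 3.55 and 4.85 (Ota) at 72 h. Ota values were below controls at both times, with log2 fold changes of -1.46 ± 0.34 and -3.57 ± 0.34 (SE; limma adjusted p = 0.00316 and 4.1e-06). The NUP62CL Ota value of 3.55 at 72 h lay within the range of member probe sets under the filter (2.00 to 4.43). The size of its 72 h difference is therefore uncertain. NUP54 passed at neither time, though it rose at 72 h with centring.

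On the cytoplasmic face, where mRNA leaves the pore, at 24 h 1 of 6 rose and 3 fell (2 and 3 with centring, 1 and 3 after quantile normalization, 0 and 5 with the spike-in scaling), and at 72 h 2 of 6 rose and 2 fell (2 and 1 with centring, 2 and 1 after quantile normalization, 0 and 4 with the spike-in scaling). RAE1, an mRNA export factor that also acts in mitosis, measured 10.52, 10.44 and 10.65 on control and 11.87, 11.78 and 12.07 on Ota arrays at 24 h, and 10.44, 10.56 and 10.49 (control) and 11.90, 12.05 and 11.39 (Ota) at 72 h. All Ota arrays were above the controls, with rises of 1.37 ± 0.17 and 1.28 ± 0.17 (SE; limma adjusted p = 3.1e-05 and 5.5e-05), the first at -0.48 with the spike-in scaling. NUP88, which holds NUP214 at the pore, measured 9.88, 9.92 and 10.18 on control and 7.34, 7.92 and 6.72 on Ota arrays at 24 h. By 72 h these were 9.70, 9.95 and 9.89 (control) and 7.71, 7.41 and 8.11 (Ota). No Ota array reached a control, and the log2 fold changes were -2.66 ± 0.27 and -2.10 ± 0.27 (SE; limma adjusted p = 5.6e-06 and 3.7e-05).

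NUP214, a docking site for XPO1, measured 6.98, 7.17 and 6.57 on control and 5.35, 5.30 and 5.38 on Ota arrays at 24 h, a log2 fold change of -1.56 ± 0.18 (SE, limma adjusted p = 1.5e-05) with no overlap. When probe sets marked as shared or cross-hybridizing were left out, the gene was read from another set at 0.08. At 72 h the values were 6.38, 6.52 and 6.36 (control) and 6.27, 6.40 and 6.79 (Ota), which overlapped (0.07, limma adjusted p = 0.767). Of the 3 NUP214 sets 1 rose at 72 h, by 1.45. NUP42, a partner of the export factor GLE1, measured 7.33, 7.37 and 7.27 on control and 8.47, 8.38 and 8.18 on Ota arrays at 72 h and rose by 1.02 ± 0.23 (SE, limma adjusted p = 0.00234). Its groups overlapped at 24 h, at 7.02, 6.96 and 7.39 (control) and 6.99, 6.70 and 7.72 (Ota). AAAS, the gene for aladin, fell by 0.85 ± 0.27 at 72 h (SE, limma adjusted p = 0.0175), from 4.78, 5.75 and 5.42 on control to 4.80, 4.55 and 4.04 on Ota arrays with overlap, and the call ended when any 1 of Ota replicate 3 of 72 h and control replicates 2 and 3 of 72 h was left out (limma adjusted p up to 0.0814). At 24 h its values were 6.08, 6.11 and 5.97 (control) and 5.35, 6.03 and 5.41 (Ota), with no call.

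The nuclear basket lines the inner face. At 24 h 1 of 3 rose and 0 fell (3 and 0 with centring, 1 and 0 after quantile normalization, 0 and 3 with the spike-in scaling), and at 72 h 1 of 3 rose and 0 fell (3 and 0 with centring, 1 and 0 after quantile normalization, 0 and 1 with the spike-in scaling). NUP153, which ties the basket to the ring and binds import complexes, measured 10.42, 10.41 and 10.38 on control and 11.12, 10.72 and 11.20 on Ota arrays at 24 h, and 10.26, 9.95 and 10.13 (control) and 11.40, 11.48 and 11.48 (Ota) at 72 h. Ota arrays were the higher ones throughout, with rises of 0.61 ± 0.15 and 1.34 ± 0.15 (SE; limma adjusted p = 0.00424 and 1.4e-05), and the first was -1.24 with the spike-in scaling. The chosen probe sets of NUP50, a partner of importin alpha, and of TPR passed at neither time. Of the 4 NUP50 sets 2 fell at 24 h (lowest -1.72), and the other TPR sets are described further on.

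**Figure D2:**
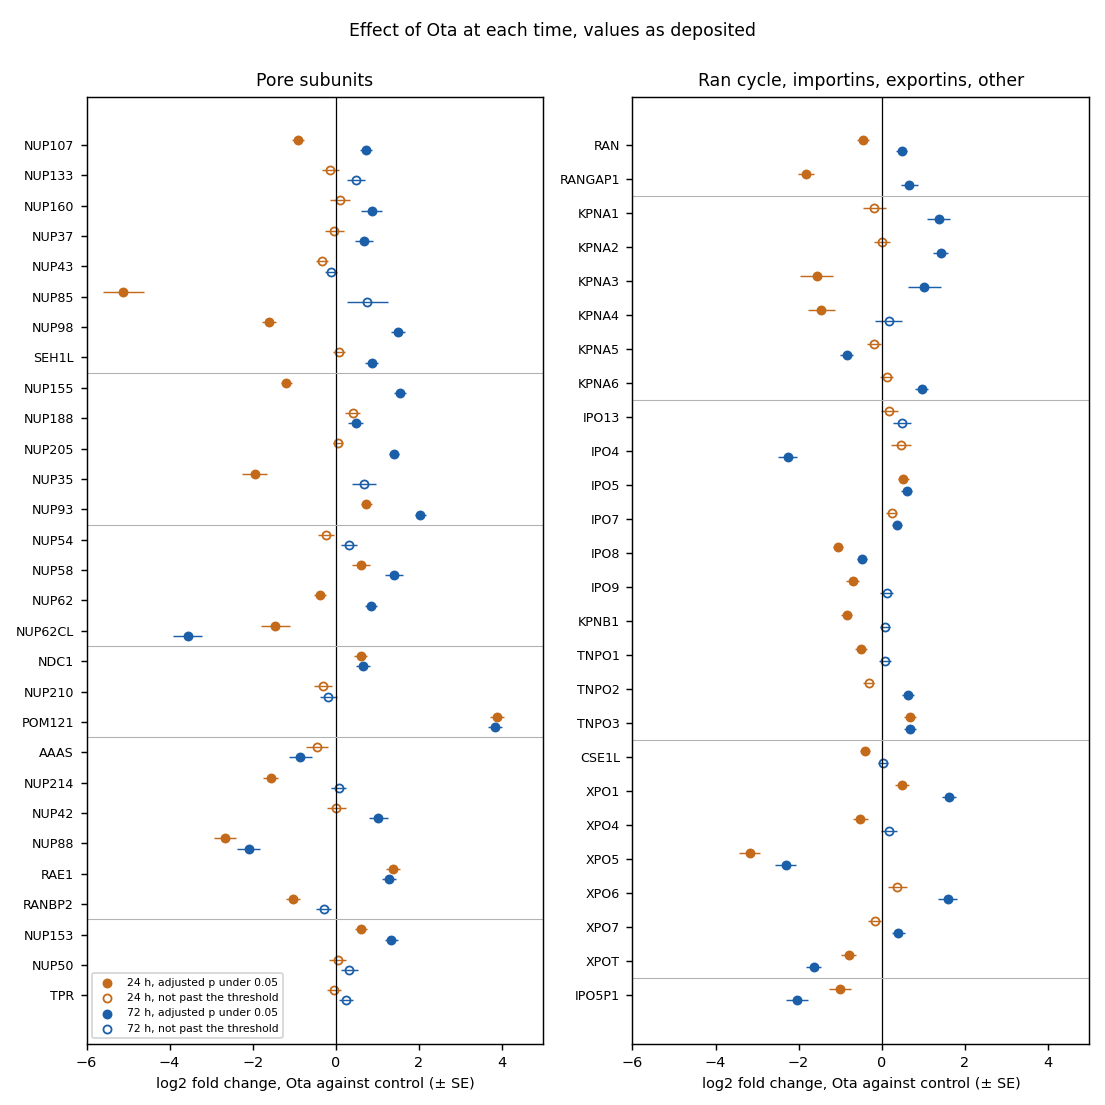
Log2 fold change of Ota against control for each of the 55 genes at 24 h (orange) and 72 h (blue), with standard errors; filled points have a limma adjusted p under 0.05 and open points do not. POM121 lies at 3.88 and 3.83, NUP85 at -5.12 at 24 h, and most members sit further right at 72 h than at 24 h. With the spike-in scaling most 24 h points would lie below 0 (53 members fell and 1 rose).

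The Ran cycle sets the direction of transport. At 24 h 0 of 2 rose and 2 fell (0 and 1 with centring, 0 and 2 after quantile normalization, 0 and 2 with the spike-in scaling), and at 72 h 2 of 2 rose and 0 fell (2 and 0 with centring, 2 and 0 after quantile normalization, 0 and 0 with the spike-in scaling). RANGAP1, the activator that turns Ran-GTP to Ran-GDP outside the nucleus, measured 8.96, 8.60 and 8.52 on control and 6.66, 6.70 and 7.25 on Ota arrays at 24 h, and 7.80, 7.61 and 7.95 (control) and 8.46, 8.21 and 8.67 (Ota) at 72 h. The Ota arrays lay below the controls at 24 h and above them at 72 h. The log2 fold changes were -1.82 ± 0.20 and 0.66 ± 0.20 (SE; limma adjusted p = 1.1e-05 and 0.0133; -0.23 at 72 h with the spike-in scaling), and all 3 of its probe sets fell at 24 h and rose at 72 h. The 72 h call ended when any 1 of Ota replicate 3 of 72 h and control replicate 2 of 72 h was left out (limma adjusted p up to 0.0552).

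RAN measured 13.79, 13.66 and 13.86 on control and 13.17, 13.32 and 13.46 on Ota arrays at 24 h, and 13.25, 13.11 and 13.29 (control) and 13.65, 13.56 and 13.86 (Ota) at 72 h. Its Ota arrays were lower at 24 h and higher at 72 h, with log2 fold changes of -0.45 ± 0.14 and 0.48 ± 0.14 (SE; limma adjusted p = 0.0139 and 0.0105). The 24 h value was 0.11 with centring, the 72 h value was -0.41 with the spike-in scaling, and the second RAN probe set was at 0.45 at 24 h (limma adjusted p = 0.1). The 24 h call ended when Ota replicate 1 of 24 h was left out (limma adjusted p = 0.0589).

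Among the importin alphas, adapters that bind classical nuclear localization signals, at 24 h 0 of 6 rose and 2 fell (3 and 2 with centring, 0 and 2 after quantile normalization, 0 and 6 with the spike-in scaling), and at 72 h 4 of 6 rose and 1 fell (4 and 1 with centring, 4 and 1 after quantile normalization, 0 and 1 with the spike-in scaling). KPNA2, an importin alpha typical of dividing cells, measured 12.95, 12.61 and 13.002 on control and 12.89, 12.54 and 13.15 on Ota arrays at 24 h, which overlapped. At 72 h it measured 11.94, 12.06 and 11.83 (control) and 13.47, 13.15 and 13.47 (Ota), all Ota arrays being higher, and rose by 1.42 ± 0.18 (SE, limma adjusted p = 3.7e-05; 0.53 with the spike-in scaling). The second KPNA2 probe set rose by 1.95. KPNA1 measured 8.78, 8.56 and 8.79 on control and 8.57, 7.81 and 9.21 on Ota arrays at 24 h, with overlap, and 8.86, 8.51 and 8.82 (control) and 10.03, 10.31 and 9.97 (Ota) at 72 h, without. KPNA1 rose by 1.38 ± 0.28 at 72 h (SE, limma adjusted p = 0.00113).

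KPNA3 and KPNA4 fell at 24 h. KPNA3 measured 10.11, 9.81 and 9.92 on control and 8.71, 7.12 and 9.31 on Ota arrays at 24 h, and 9.72, 9.62 and 9.66 (control) and 10.66, 10.79 and 10.63 (Ota) at 72 h. Its Ota arrays were below the controls first and above them later, with log2 fold changes of -1.57 ± 0.40 and 1.03 ± 0.40 (SE; limma adjusted p = 0.0053 and 0.0446). The 72 h call ended when any 1 of Ota replicate 1 of 24 h, Ota replicates 1, 2 and 3 of 72 h, control replicates 1, 2 and 3 of 24 h and control replicates 1, 2 and 3 of 72 h was left out (limma adjusted p up to 0.103). KPNA4 measured 11.99, 11.48 and 12.06 (control) and 10.69, 9.46 and 11.03 (Ota) at 24 h, a log2 fold change of -1.45 ± 0.32 (SE, limma adjusted p = 0.0021) with no overlap and with all 4 of its probe sets fallen. At 72 h it measured 12.27, 12.32 and 12.19 (control) and 12.52, 12.42 and 12.35 (Ota) and did not pass (0.17, limma adjusted p = 0.676).

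KPNA5 fell at 72 h: it measured 8.96, 9.17 and 8.97 on control and 8.29, 8.11 and 8.15 on Ota arrays, with no overlap and a log2 fold change of -0.85 ± 0.16 (SE, limma adjusted p = 8.2e-04). At 24 h its values of 8.20, 8.35 and 8.64 (control) and 8.48, 7.99 and 8.16 (Ota) overlapped. Of the 3 KPNA5 sets 1 fell at 24 h (-0.85). KPNA6 rose by 0.96 ± 0.16 at 72 h (limma adjusted p = 2.4e-04). Of the 4 KPNA6 sets 2 rose at 24 h, the highest by 0.75.

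The importin beta family holds the receptors that bind cargo or adapters and cross the pore. At 24 h 2 of 10 rose and 4 fell (5 and 1 with centring, 4 and 4 after quantile normalization, 0 and 10 with the spike-in scaling), and at 72 h 4 of 10 rose and 2 fell (6 and 1 with centring, 4 and 2 after quantile normalization, 0 and 5 with the spike-in scaling). IPO4, an importer of histones, measured 8.25, 7.94 and 8.36 on control and 8.80, 8.94 and 8.21 on Ota arrays at 24 h, with overlap (0.47, limma adjusted p = 0.104). At 72 h IPO4 measured 8.05, 7.89 and 8.02 (control) and 5.39, 5.58 and 6.19 (Ota), with all Ota arrays well below the controls, and fell by 2.27 ± 0.23 (SE, limma adjusted p = 7.1e-06). TNPO3, which imports splicing factors rich in serine and arginine, measured 9.91, 10.04 and 9.97 on control and 10.58, 10.43 and 10.95 on Ota arrays at 24 h, and 9.75, 9.78 and 9.79 (control) and 10.33, 10.54 and 10.50 (Ota) at 72 h. It rose by 0.68 ± 0.15 and 0.68 ± 0.15 (SE; limma adjusted p = 0.00176 and 0.00175; -1.17 and -0.21 with the spike-in scaling), with no overlap at either time.

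IPO5, an importer of ribosomal proteins, measured 10.40, 10.39 and 10.16 on control and 10.79, 10.88 and 10.82 on Ota arrays at 24 h, and 10.44, 10.34 and 10.23 (control) and 10.86, 11.10 and 10.85 (Ota) at 72 h. The groups did not overlap, and it rose by 0.52 ± 0.13 and 0.60 ± 0.13 (SE; limma adjusted p = 0.00532 and 0.00202; -1.33 and -0.29 with the spike-in scaling). TNPO2 measured 9.69, 9.90 and 9.60 on control and 10.50, 10.38 and 10.21 on Ota arrays at 72 h, the latter all higher, and rose by 0.64 ± 0.14 (SE, limma adjusted p = 0.00217; -0.25 with the spike-in scaling). At 24 h its values were 9.82, 9.92 and 10.14 (control) and 9.67, 9.60 and 9.66 (Ota), with no call.

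IPO8, which imports Argonaute proteins and SMADs, measured 9.89, 9.92 and 9.87 on control and 8.76, 8.93 and 8.84 on Ota arrays at 24 h, and 9.46, 9.76 and 9.65 (control) and 9.19, 9.11 and 9.14 (Ota) at 72 h. Its Ota arrays were lower throughout, with log2 fold changes of -1.05 ± 0.12 and -0.48 ± 0.12 (SE; limma adjusted p = 2.0e-05 and 0.00587; -0.20 at 72 h with centring, not past the threshold). KPNB1, importin beta itself, measured 12.51, 12.41 and 12.37 on control and 11.704, 11.42 and 11.63 on Ota arrays at 24 h, and 12.47, 12.30 and 12.30 (control) and 12.47, 12.37 and 12.45 (Ota) at 72 h. This probe set fell by 0.84 ± 0.13 at 24 h (SE, limma adjusted p = 1.3e-04; -0.28 with centring, not past the threshold) with no overlap, and did not pass at 72 h, but other KPNB1 probe sets rose. IPO9 and TNPO1 fell at 24 h, with log2 fold changes of -0.70 and -0.51 (the second at 0.06 with centring). At 72 h 3 of the 4 IPO9 sets rose, the highest by 1.51, as did 1 of the 7 TNPO1 sets. IPO7 rose at 72 h by 0.37 (-0.52 with the spike-in scaling), and this call ended when any 1 of Ota replicate 1 of 72 h and control replicates 2 and 3 of 72 h was left out (limma adjusted p up to 0.099). IPO13 passed at neither time, though it rose at both times with centring and after quantile normalization.

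Among the exportins, at 24 h 1 of 7 rose and 4 fell (3 and 1 with centring, 1 and 3 after quantile normalization, 0 and 7 with the spike-in scaling), and at 72 h 3 of 7 rose and 2 fell (3 and 2 with centring, 3 and 2 after quantile normalization, 2 and 4 with the spike-in scaling). XPO5, the exporter of microRNA precursors, measured 9.06, 8.88 and 8.87 on control and 5.35, 5.66 and 6.27 on Ota arrays at 24 h, and 9.89, 9.34 and 9.81 (control) and 7.46, 6.97 and 7.69 (Ota) at 72 h. All Ota values were below all controls, and the log2 fold changes were -3.18 ± 0.25 and -2.31 ± 0.25 (SE; limma adjusted p = 8.6e-07 and 1.1e-05). All 3 of its probe sets fell at both times, over a range of -4.63 to -1.27 at 24 h and -2.69 to -2.31 at 72 h. XPO1, the exporter of proteins with leucine-rich signals, measured 12.49, 12.37 and 12.52 on control and 13.05, 12.71 and 13.06 on Ota arrays at 24 h, and 11.19, 11.45 and 11.003 (control) and 12.91, 12.99 and 12.58 (Ota) at 72 h.

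XPO1 was higher on all Ota arrays and rose by 0.48 ± 0.17 and 1.61 ± 0.17 (SE; limma adjusted p = 0.0266 and 7.6e-06), the first at -1.37 with the spike-in scaling. The 24 h call ended when any 1 of Ota replicates 1 and 3 of 24 h and control replicates 1 and 2 of 24 h was left out (limma adjusted p up to 0.086). Of its other 2 probe sets, neither passed at 72 h. XPO6, an exporter of actin, measured 9.24, 8.94 and 9.21 on control and 10.76, 10.91 and 10.48 on Ota arrays at 72 h and rose by 1.59 ± 0.23 (SE, limma adjusted p = 8.0e-05) with no overlap. At 24 h its values of 9.53, 9.82 and 9.56 (control) and 9.997, 9.54 and 10.51 (Ota) overlapped.

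XPOT, the exporter of transfer RNA, measured 11.12, 10.76 and 10.99 on control and 10.38, 9.92 and 10.18 on Ota arrays at 24 h, and 12.47, 12.34 and 12.62 (control) and 11.07, 10.58 and 10.87 (Ota) at 72 h. Its Ota arrays were lower at both times, with log2 fold changes of -0.80 ± 0.18 and -1.64 ± 0.18 (SE; limma adjusted p = 0.00203 and 9.4e-06). CSE1L, which returns importin alpha to the cytoplasm, fell by 0.39 ± 0.12 at 24 h (limma adjusted p = 0.0134; 0.17 with centring). Of the 3 CSE1L sets 1 rose at 72 h. XPO4 fell by 0.51 at 24 h (0.05 with centring), and this call ended when any 1 of Ota replicate 2 of 24 h and control replicates 1 and 2 of 24 h was left out (limma adjusted p up to 0.108). XPO7 rose at 72 h by 0.40 (-0.49 with the spike-in scaling), and this call ended when any 1 of Ota replicate 1 of 24 h, Ota replicates 2 and 3 of 72 h, control replicates 1 and 2 of 24 h and control replicates 2 and 3 of 72 h was left out (limma adjusted p up to 0.145).

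The pseudogene IPO5P1 measured 6.02, 5.43 and 5.44 on control and 4.65, 4.67 and 4.58 on Ota arrays at 24 h, and 5.76, 6.42 and 5.29 (control) and 4.02, 3.67 and 3.67 (Ota) at 72 h. Its Ota arrays were below the controls, with log2 fold changes of -0.998 ± 0.26 and -2.04 ± 0.26 (SE; limma adjusted p = 0.00566 and 3.6e-05). The 24 h call ended with centring and after quantile normalization, and the 72 h Ota values lay within the range of probe sets under the filter, so the size of that difference is uncertain. Since it is a copy of IPO5 the source of its signal is uncertain. No probe set of IPO11, IPO9-AS1, NUP133-DT, NUP210L, NUP210P1 or NUP50-DT passed the filter. The 32 member probe sets under the filter had values of 2.00 to 4.43 on the 12 arrays, and no difference was read from them. Of the 55 probe sets chosen to stand for a gene, 52 were over 4 on all 12 arrays, the exceptions being IPO5P1, NUP62CL and NUP85.

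Control cells also changed between 24 h and 72 h. Of the 55 members 3 rose and 17 fell (25.5% of all genes were called, 12.2% rising and 13.3% falling), with a median of -0.29 beside 0.00 for all genes, and 5 rose and 18 fell with centring (12.9% and 12.6% of all genes), 5 and 17 after quantile normalization (13.5% and 14%), and 1 and 10 with the spike-in scaling (5.37% and 6.56%). In the inner ring 4 of 5 members fell and in the Y complex 4 of 8 (with the spike-in scaling 4 and 2). NUP205 fell by 1.51, from 9.56, 9.69 and 9.50 to 8.18, 8.002 and 8.05, and NUP85 fell by 1.62, from 9.87, 10.09 and 9.85 to 8.22, 8.44 and 8.29. Control values of NUP205 and NUP85 were lower at 72 h on every array, although the NUP85 call ended when any 1 of control replicates 1, 2 and 3 of 24 h and control replicates 1, 2 and 3 of 72 h was left out (limma adjusted p up to 0.0907). XPOT rose by 1.52 ± 0.18 (SE, limma adjusted p = 9.4e-05) and KPNA5 by 0.64 ± 0.16 (limma adjusted p = 0.0143), and the KPNA5 call ended when any 1 of control replicate 1 of 24 h and control replicate 2 of 72 h was left out (limma adjusted p up to 0.0675). Without Ota replicate 2 of 24 h, which enters through the shared estimate of spread, 5 members rose. IPO7 was the third that rose, by 0.47, and its call ended when any 1 of control replicates 2 and 3 of 24 h and control replicates 1 and 3 of 72 h was left out (limma adjusted p up to 0.0877).

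Because the 72 h comparison is read against these later controls, levels are also given against the earlier ones. The control mean was lower at 72 h than at 24 h in 42 of the 55 members (76.4%, beside 49.9% of all genes). It was lower in 24 of the 29 that rose at 72 h (82.8%, beside 67.8% of all genes that rose), a choice that itself favours low controls at 72 h. Of those 29, 22 had an Ota mean at 72 h above the control mean of 24 h. The same choice favours high Ota values at 72 h. For NUP107 the means were 10.29 and 9.25 in control cells and 9.98 in Ota cells at 72 h. For NUP205 they were 9.58, 8.08 and 9.47, and for KPNA2 12.85, 11.94 and 13.36. Over all 55 members, the Ota mean at 72 h was above the 24 h control mean in 29. Neither this count nor the 22 of 29 was made over all genes, so neither can be set beside a background share.

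**Figure D3:**
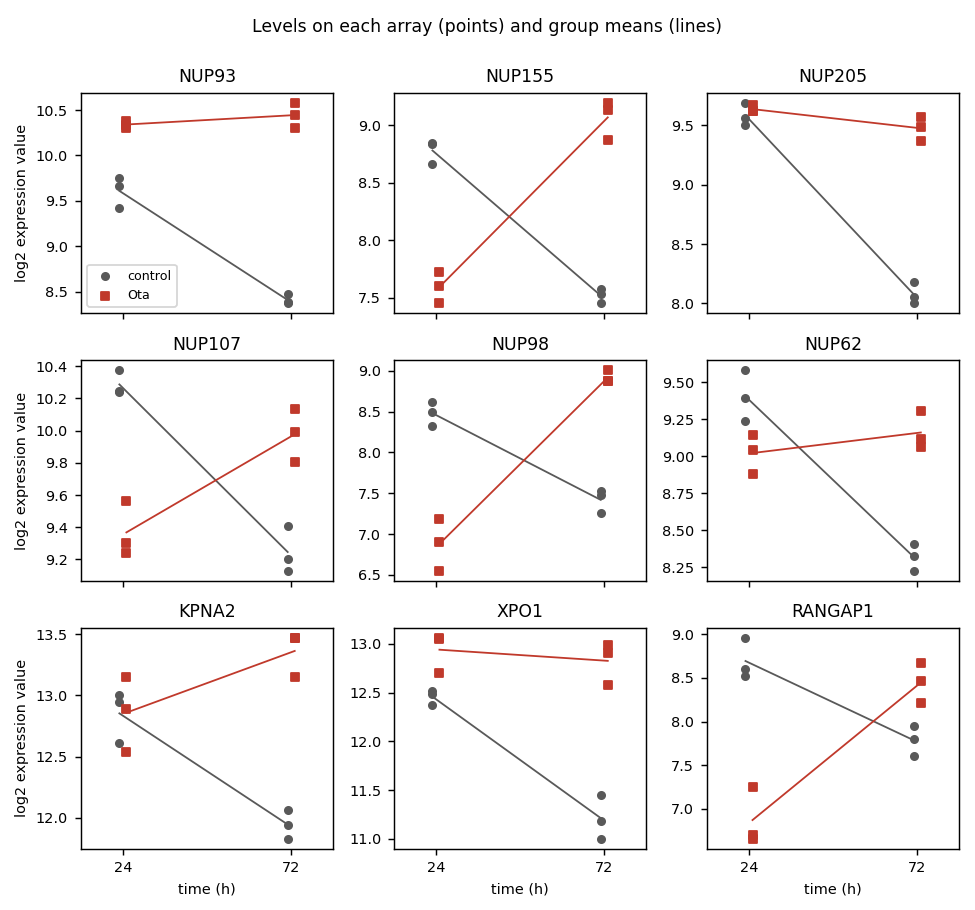
Log2 expression values of 9 genes, chosen after their values were seen, on each array at 24 h and 72 h; points are arrays, lines join group means, grey is control and red is Ota. In all 9 the control line falls with time and the Ota values at 72 h lie above the controls of that time. NUP107, NUP155, NUP98, NUP62 and RANGAP1 lie below the controls at 24 h.

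The effect of Ota differed between the times in 35 members, 30 with a higher value at 72 h and 5 with a lower one (49.5% of all genes were called, 29.6% higher and 19.9% lower). The median difference was 0.73 beside 0.17 for all genes, and the counts were 21 and 5 with centring (23.5% and 26.6% of all genes), 25 and 5 after quantile normalization (26% and 23.4%), and 49 and 1 with the spike-in scaling (55.1% and 4.88%). NUP85 differed by 5.87 ± 0.70, NUP98 by 3.10 ± 0.24 and NUP155 by 2.74 ± 0.19 (SE; limma adjusted p = 6.3e-05, 7.4e-06 and 4.9e-06). Differences in the other direction were -2.74 ± 0.33 for IPO4, -2.11 ± 0.49 for NUP62CL and -1.04 ± 0.37 for IPO5P1 (SE; limma adjusted p = 7.2e-05, 0.00403 and 0.0347), and the IPO5P1 call ended when any 1 of Ota replicates 1 and 2 of 24 h, Ota replicates 2 and 3 of 72 h, control replicates 2 and 3 of 24 h and control replicates 1 and 2 of 72 h was left out (limma adjusted p up to 0.0786). The lower count was 3 without Ota replicate 1 of 24 h, Ota replicates 2 and 3 of 72 h, control replicate 2 of 24 h, or control replicate 1 or 2 of 72 h, left out 1 at a time.

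A gene's probe sets did not always move together. Of the 138 member probe sets past the filter, 29 rose and 54 fell at 24 h and 68 rose and 17 fell at 72 h. The shares called, 60.1% and 61.6%, lay near the 60.5% and 58.8% of all 19407 probe sets. Rises and falls were not counted apart over all probe sets. Among the 37 genes with several probe sets, 7 had probe sets past the threshold in opposite directions at 24 h (KPNA1, KPNA3, KPNB1, NUP58, RANBP2, TPR and XPOT) and 3 at 72 h (KPNB1, NUP58 and TPR). Opposing probe sets were not counted over all genes, so whether these numbers are unusual was not tested. Probe sets of a gene read different stretches of its transcripts, and which stretches these read was not tested.

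For KPNB1, 3 probe sets fell at 24 h (-1.501 to -0.84) and 3 rose by 1.22 to 1.44. At 72 h 3 rose, the highest by 1.95, and 1 fell by 0.73. TPR, the basket's main filament, had 1 set that rose at 24 h by 1.92, from 7.03, 6.83 and 7.03 on control to 8.95, 8.59 and 9.12 on Ota arrays, and 2 that fell (-1.11 and -1.17), the first from 10.01, 10.24 and 9.93 to 8.94, 8.64 and 9.29. None of these 3 TPR sets had overlapping groups at 24 h. For TPR's chosen set, the values were 10.54, 10.65 and 10.55 on control and 10.70, 10.29 and 10.64 on Ota arrays, with overlap.

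RANBP2, a SUMO ligase of the cytoplasmic filaments that holds RANGAP1, measured 10.66, 10.57 and 10.55 on control and 9.75, 9.15 and 9.79 on Ota arrays at 24 h on its chosen set. That set fell by 1.03 ± 0.17 (SE, limma adjusted p = 2.8e-04), while another rose by 1.68. At 72 h the chosen set was at -0.29 and the other rose by 1.35. NUP58 had 1 set that fell at both times (-1.99 and -1.92), against 3 that rose. KPNA1 had 1 set that rose at 24 h by 1.97 and 3 that fell (-1.29 to -0.53), and at 72 h 5 of 6 rose. The second set of KPNA3 rose by 0.69 at 24 h, and that of XPOT rose by 0.82 at 24 h and fell by 0.63 at 72 h. RANGAP1, XPO5, RAE1 and IPO5 were among the genes whose probe sets all moved 1 way at 24 h.

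**Figure D4:**
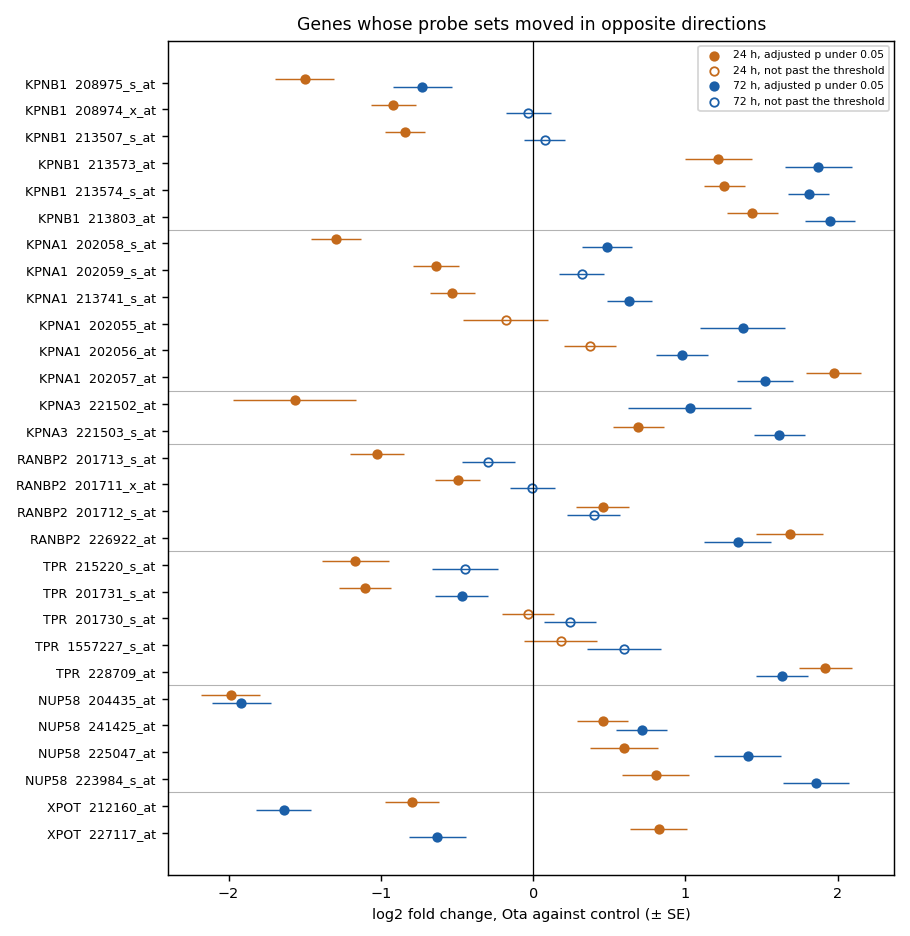
Log2 fold change of Ota against control for every probe set past the filter of the 7 genes whose probe sets passed the threshold in opposite directions, at 24 h (orange) and 72 h (blue), with standard errors; filled points have a limma adjusted p under 0.05. KPNB1 splits into 3 sets below 0 and 3 above at 24 h, as deposited.

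Other genes of nuclear transport were read from a list of 37, of which 30 were measured. At 24 h 7 rose and 13 fell (13 and 11 with centring, 0 and 29 with the spike-in scaling), with a median of -0.33. These shares, 23.3% and 43.3%, lay near those of all genes (20.8% and 40.5%, median -0.24). At 72 h 13 rose and 7 fell (17 and 5 with centring, 3 and 13 with the spike-in scaling), with a median of 0.36, or 43.3% and 23.3% beside 24.8% and 35.2% of all genes (median -0.11). At 24 h the largest falls were in SNUPN, which imports small nuclear RNPs, with -3.68 ± 0.21, in the mRNA export subunit THOC1 with -3.31 ± 0.34, and in the cap-binding subunit NCBP1 with -3.16 ± 0.38 (SE; limma adjusted p = 6.2e-08, 6.4e-06 and 2.0e-05). SNUPN measured 8.30, 8.56 and 8.44 on control and 4.62, 4.44 and 5.18 on Ota arrays at 24 h, with no overlap. The largest rises were in MCM3AP (1.54), GLE1 (1.08) and DDX39A (0.97), all mRNA export factors, and all 3 were below 0 with the spike-in scaling.

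At 72 h the largest falls of that transport list were in NCBP2, the partner of NCBP1, with -2.20 ± 0.16, in THOC1 with -1.95 ± 0.34 and in THOC5, another subunit of its complex, with -1.73 ± 0.24 (SE; limma adjusted p = 5.2e-07, 3.9e-04 and 7.7e-05). DDX39A, an mRNA export helicase, rose by 2.40 ± 0.16, MCM3AP by 1.68 ± 0.22 and PHAX, an adapter for export of small nuclear RNA, by 1.62 ± 0.25 (SE; limma adjusted p = 2.5e-07, 4.4e-05 and 1.4e-04). Of 20 measured nuclear envelope and lamina genes, 2 rose and 11 fell at 24 h (3 and 5 with centring, 0 and 20 with the spike-in scaling), or 10% and 55% beside 20.8% and 40.5% of all genes. At 72 h 6 rose and 9 fell (7 and 5 with centring, 2 and 12 with the spike-in scaling), or 30% and 45% beside 24.8% and 35.2%.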

How the data were processed

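RNA from HK-2 cells was hybridized to 12 Affymetrix arrays, 3 in each of 4 groups taken from the labels. The authors deposited log2 expression values per probe set, made with GCRMA per the submitters' processing notes; its version, the arrays normalized together and any later filter are not given in the sources used here. Platform annotation gave 1 symbol for 41097 of 54675 probe sets, several for 1801 and none for 11777. Means of the 4 groups were fitted over 10729 genes with limma 3.58.1 in R 4.3.3 (residual df 8, prior df 3.56), two-sided, Benjamini-Hochberg adjusted, threshold 0.05, and again over 19407 probe sets. The filter was a value over 4 on at least 3 arrays, and a gene's probe set was the one of highest average signal. The model was also run on simulated data with changes in a small share of genes, independent noise and no array-wide shift. The real arrays differ from that setting, so the run does not show how the model does on them. Precision is limited by the number of arrays. The p-values set a difference against the spread between arrays labelled as biological replicates, estimated over the 4 groups together. The main fits treated the 12 arrays as independent.

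The members, role groups, lists and tests were chosen with earlier results of these data known, and nothing here is independent support for a pattern those results showed. Array values are given, in each role group, for the 2 largest rises and 2 largest falls past the threshold at each time, for the 3 largest changes between times and the 2 largest over time in control cells in each direction, and for genes with opposing probe sets; from the list of other transport genes, the 3 largest in each direction are named. Alternatives were quantile normalization, centring, scaling to 24 poly-A spike-in probe sets, other filters and probe set rules, array weights, the replicate block, fitting only the arrays of a comparison, and leaving out each array. Same-numbered Ota and control arrays of 24 h deviated together (r = 0.12, 0.23 and 0.27 over tested genes). The numbers were taken to pair those arrays, from the data and not from a stated batch. The main fits left this pairing out, and it entered only through the replicate block among the alternatives. Protein sequences were not used here.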

Additional observations from a re-analysis of the deposited data

Results flagged for a closer look

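The response to Ota differed between 72 h and 24 h in 35 of the 55 measured genes by limma's test of the difference itself (adjusted p under 0.05, with 49.5% of all genes called), and these results were listed for that reason. Values are differences between the log2 fold changes of the 2 times, 72 h minus 24 h, each from 3 against 3 arrays.

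Among pore subunits the difference was positive in NUP85 (5.87), NUP98 (3.10), NUP155 (2.74), NUP35 (2.63), NUP107 (1.65), NUP214 (1.63), NUP205 (1.35), NUP93 (1.31), NUP62 (1.23), NUP42 (1.01), NUP58 (0.81), SEH1L (0.78), NUP153 (0.73) and RANBP2 (0.73). Among transport receptors and the Ran cycle it was positive in KPNA3 (2.59), RANGAP1 (2.48), KPNA4 (1.62), KPNA1 (1.56), KPNA2 (1.42), XPO6 (1.21), XPO1 (1.13), TNPO2 (0.95), RAN (0.93), KPNB1 (0.92), KPNA6 (0.84), IPO9 (0.82), XPO4 (0.69), TNPO1 (0.58), XPO7 (0.57) and IPO8 (0.57). It was negative in KPNA5 (-0.66), XPOT (-0.84), IPO5P1 (-1.04), NUP62CL (-2.11) and IPO4 (-2.74). With the spike-in scaling KPNA5 and XPOT turned positive, at 0.30 and 0.12.

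Some of these calls ended when 1 array was left out. The IPO5P1 call ended when any 1 of Ota replicates 1 and 2 of 24 h, Ota replicates 2 and 3 of 72 h, control replicates 2 and 3 of 24 h and control replicates 1 and 2 of 72 h was left out (limma adjusted p up to 0.0786). For IPO8, the call ended when control replicate 1 of 72 h was left out (limma adjusted p = 0.0566). The KPNA5 call ended when any 1 of Ota replicate 1 of 24 h, Ota replicates 2 and 3 of 72 h, control replicates 1 and 2 of 24 h and control replicates 1, 2 and 3 of 72 h was left out (limma adjusted p up to 0.0845). For NUP42, the call ended when any 1 of Ota replicate 1 of 24 h, Ota replicate 1 of 72 h, control replicate 3 of 24 h and control replicate 3 of 72 h was left out (limma adjusted p up to 0.0597). The NUP58 call ended when any 1 of Ota replicates 2 and 3 of 24 h, Ota replicates 1 and 3 of 72 h, control replicates 1 and 3 of 24 h and control replicates 1, 2 and 3 of 72 h was left out (limma adjusted p up to 0.109). For RANBP2, the call ended when any 1 of Ota replicate 1 of 72 h, control replicate 1 of 24 h and control replicates 1 and 3 of 72 h was left out (limma adjusted p up to 0.0652). The TNPO1 call ended when any 1 of Ota replicates 1 and 3 of 24 h, Ota replicates 1 and 3 of 72 h, control replicates 2 and 3 of 24 h and control replicates 1, 2 and 3 of 72 h was left out (limma adjusted p up to 0.091). For XPO4, the call ended when any 1 of Ota replicates 1 and 2 of 24 h, Ota replicate 2 of 72 h, control replicates 1 and 2 of 24 h and control replicates 1, 2 and 3 of 72 h was left out (limma adjusted p up to 0.101). The XPO7 call ended when any 1 of Ota replicates 1 and 2 of 24 h, Ota replicates 1, 2 and 3 of 72 h, control replicates 1 and 2 of 24 h and control replicates 1, 2 and 3 of 72 h was left out (limma adjusted p up to 0.115). What sets the difference between the times was not tested.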

How the results depend on the processing

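Of the counts of members that rose or fell, those at 72 h moved by more than 1.5 times with the spike-in scaling and under no other setting run, while those at 24 h, between times and in control cells moved under several. With centring, 26 rose and 13 fell at 24 h, and CSE1L (0.17), NUP62 (0.18), RAN (0.11), TNPO1 (0.055) and XPO4 (0.048) turned positive there. Scaling to the spike-ins gave 1 rise and 53 falls at 24 h, 4 and 19 at 72 h, 49 and 1 between times, and 1 and 10 in control cells. Values that turned with it at 24 h were IPO5 (-1.33), NDC1 (-1.25), NUP153 (-1.24), NUP58 (-1.25), NUP93 (-1.12), RAE1 (-0.48), TNPO3 (-1.17) and XPO1 (-1.37). At 72 h they were IPO5 (-0.29), IPO7 (-0.52), NDC1 (-0.23), NUP107 (-0.16), NUP160 (-0.027), NUP188 (-0.41), NUP37 (-0.21), NUP62 (-0.046), RAN (-0.41), RANGAP1 (-0.23), SEH1L (-0.027), TNPO2 (-0.25), TNPO3 (-0.21) and XPO7 (-0.49), and between times KPNA5 (0.30) and XPOT (0.12). Averaging a gene's probe sets turned KPNB1 (0.11), NUP58 (-0.032), RANBP2 (0.16) and XPOT (0.014) at 24 h. Without probe sets marked _s_at or _x_at, 13 fell at 24 h, 18 rose between times and 10 fell in control cells, and KPNB1 (1.22), NUP214 (0.076), RAN (0.45) and RANBP2 (1.68) turned at 24 h, NUP214 (-0.38) and RANBP2 (-0.34) between times, and RAN (0.25) and TPR (0.56) in control cells; fewer probe sets enter that alternative, so other sets stand for these genes. With array weights 15 rose at 24 h, and 5 rose and 29 fell in control cells; the cause was not tested. In control cells 5 rose after quantile normalization, with centring, and with the arrays of the comparison alone.

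The members' median relative to all genes, 0.01 at 24 h, was -0.20 with no filter, 0.15 with averaged probe sets and 0.20 without the marked sets. At 72 h, 0.60 became 0.46 with no filter, 0.72 with a filter at 6, 0.71 with averaged sets and 0.72 without the marked sets, and between times 0.56 became 0.47, 0.43 and 0.47 under the last 3. Leaving out 1 array gave medians of -0.056 to 0.10 at 24 h, 0.60 to 0.69 at 72 h and 0.48 to 0.62 between times. It gave 3 to 5 falls between times and 2 to 5 rises in control cells, the 5 without Ota replicate 2 of 24 h. The replicate block changed no 24 h call. At 72 h, where same-numbered arrays correlated at -0.05, 0.14 and 0.19, not every array correlated best with its own number, and the arrays share only a number, it ended the XPO7 call (limma adjusted p = 0.0602) and added NUP35 (limma adjusted p = 0.0486). The block also ended the differences between times of TNPO1, XPO4 and XPO7 and added XPO5, and in control cells it ended TPR and added XPO5.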
